A study of Mus musculus with 6 samples.

Results

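Apart from Tk1, the genes described here carry cytarabine into a cell, turn it into its active triphosphate and remove it again. Tk1 serves thymidine salvage. The 10 genes are Slc29a1, Slc29a2, Dck, Cmpk1, Nme2, Tk1, Cda, Dctd, Samhd1 and Nt5c2. They were taken by name from the 35932 genes of a table of RNA sequencing counts. All 10 have a row in that table, and 9 had enough reads to be tested. The samples are 6 libraries of mouse bone marrow leukemic blasts with the genotype MLL-AF9+, a fusion of Kmt2a and Mllt3 that drives acute myeloid leukemia. The 3 sensitive libraries carry a vehicle treatment label. The 3 resistant libraries are labelled as treated with cytarabine and doxorubicin, an anthracycline. Sensitivity and drug exposure therefore cannot be told apart. The sources used here name no strain, age, dose or sampling time, and do not say that each replicate is its own animal. The p-values therefore weigh a difference only against the variation among these 6 libraries, and that variation may be technical.

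Cytarabine is a cytidine analog that acts once it is built into DNA, which it then stalls. It enters through equilibrative nucleoside transporters, and deoxycytidine kinase adds the first phosphate, the step usually held to limit activation. UMP-CMP kinase and nucleoside diphosphate kinases add the next phosphates. Cytidine deaminase and deoxycytidylate deaminase turn the nucleoside and its monophosphate into uracil forms, 5′-nucleotidases take the phosphate off again, and the hydrolase SAMHD1 splits the finished triphosphate.

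In resistant blasts the mRNA of the transporters, of the activating kinases Dck and Cmpk1 and of the hydrolase Samhd1 did not pass the test, and Cda was close to absent in both groups. Nme2, a nucleoside diphosphate kinase gene, was 1.51-fold higher in its own row, and the nucleotidase gene Nt5c2 was 1.247-fold higher. Tk1, the thymidine salvage kinase, was slightly lower. With edgeR's quasi-likelihood test and a Benjamini-Hochberg threshold of 0.05, 2 of the 9 rose, 1 fell and 6 did not pass (n = 3 libraries per group). Over all 13414 tested genes, 18.5% were higher and 20.8% lower, 39.2% in either direction, so 3 of 9 is near the share of the whole table. The median size of the change was 0.09 on the log2 scale among the 9 genes and 0.22 among all tested genes. These medians were not matched for level, and all tested genes include some with far fewer reads than any of the 9. Levels are given as CPM, the counts of a gene scaled to the total of its library with TMM factors. A positive log2 fold change means more in resistant blasts, and it is given ± SE with a 95% interval for that gene alone.

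The Nme2 row shares sequence with another row, as shown here. Whether the size of its change rests on how shared reads were divided was not tested. On chromosome 11, Nme1 and Nme2 lie next to each other on the minus strand, and the table has a separate row for Gm20390, a gene model that joins the first coding exons of Nme1 to the coding exons of Nme2. In the GENCODE M21 models, Gm20390 holds 4 of the 5 exons of Nme2, including its whole coding sequence. The stretch below is coding position 282 to 401 of Gm20390, with the part that also belongs to Nme2 in capitals and the part that also belongs to Nme1 in lower case. A read within either part fits Gm20390 and a neighbour equally well, and only a read across the change of case belongs to Gm20390 alone.

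Gm20390 junction: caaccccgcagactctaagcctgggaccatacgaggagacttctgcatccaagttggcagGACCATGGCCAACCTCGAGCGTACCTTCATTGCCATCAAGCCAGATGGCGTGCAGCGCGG

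Nme1 and Nme2 themselves can be told apart more easily. The first 150 coding bases of each are given next, with the 26 differing positions in capitals. Over the 459 coding bases, 80.0% were identical, and the longest run without a difference was 29 bases.
Nme1: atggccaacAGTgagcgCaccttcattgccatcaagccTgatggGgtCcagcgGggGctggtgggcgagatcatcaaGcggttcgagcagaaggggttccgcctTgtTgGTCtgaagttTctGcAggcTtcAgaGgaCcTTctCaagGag
Nme2: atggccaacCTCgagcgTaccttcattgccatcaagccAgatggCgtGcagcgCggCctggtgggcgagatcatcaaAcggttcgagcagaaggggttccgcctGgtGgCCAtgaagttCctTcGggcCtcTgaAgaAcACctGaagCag

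Put as shares of sequence, 95.3% of the 50-base windows of Gm20390 also occur in another gene of the table, and 47.0% of those of Nme2 occur in Gm20390. The exon of Nme2 that Gm20390 lacks is the first, of 434 bases. For Slc29a1, Slc29a2, Dck, Cda, Dctd and Nt5c2, 0 windows occurred in another gene of the table, and for Cmpk1, Tk1 and Samhd1 the share was 2.69%, 1.26% and 1.33%.

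The library totals ranged from 22206341 to 31856009 counts, and a floor of 3 counts came to 0.0945 to 0.137 CPM, which covers counting error only. The labelled cell type was checked on 13 blast markers, 0 of which were at 0 in all libraries. Of these, 3 were higher, 5 lower and 5 did not pass, or 61.5% called beside 39.2% of all tested genes. The higher ones included Cd34 and Ctsg, both named after their values were seen. On the log2 scale Cd34 rose by 0.30 ± 0.07 and Ctsg by 0.22 ± 0.07 (edgeR adjusted p = 0.0062 and 0.0345). The myeloid transcription factor gene Cebpa fell from 95.8 ± 6.10 to 25.3 ± 3.55 CPM, the granule protease gene Elane from 503 ± 75.1 to 255 ± 50.5, the receptor gene Flt3 from 102 ± 14.1 to 56.1 ± 10.1 and the integrin gene Itgam from 314 ± 6.86 to 235 ± 5.27 (these 4 were named after their values were seen). The pan-leukocyte gene Ptprc had means of 315 ± 19.0 CPM (sensitive) and 296 ± 11.7 CPM (resistant), the granule gene Mpo at 1893 ± 256 and 1502 ± 257, the receptor gene Kit at 134 ± 5.06 and 109 ± 4.996 and the homeobox gene Hoxa9 at 199 ± 16.4 and 269 ± 16.7 (SD, n = 3). Erythroid, neutrophil and monocyte markers were, in sum, lower in the resistant libraries. The sum of 11 erythroid markers was 47.9 to 83.2 CPM in sensitive and 2.08 to 3.73 CPM in resistant libraries, and that of 4 globin genes was 42.2 to 73.2 against 0.126 to 1.32 CPM. The sum of 12 neutrophil maturation markers was 218 to 263 against 36.2 to 56.4 CPM, and that of 10 monocyte and macrophage markers 1049 to 1133 against 555 to 632 CPM. In bulk RNA, fewer cells of a type and less RNA per cell cannot be told apart, and the part of these cells in the results below was not tested. The sum of 10 T and B cell markers was 42.9 to 44.6 against 40.8 to 42.6 CPM, with 1 of 3 tested genes lower, and stromal and endothelial markers were near 1 CPM in both groups, with Emcn at 0 in all 6 libraries.

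**Figure D1:**
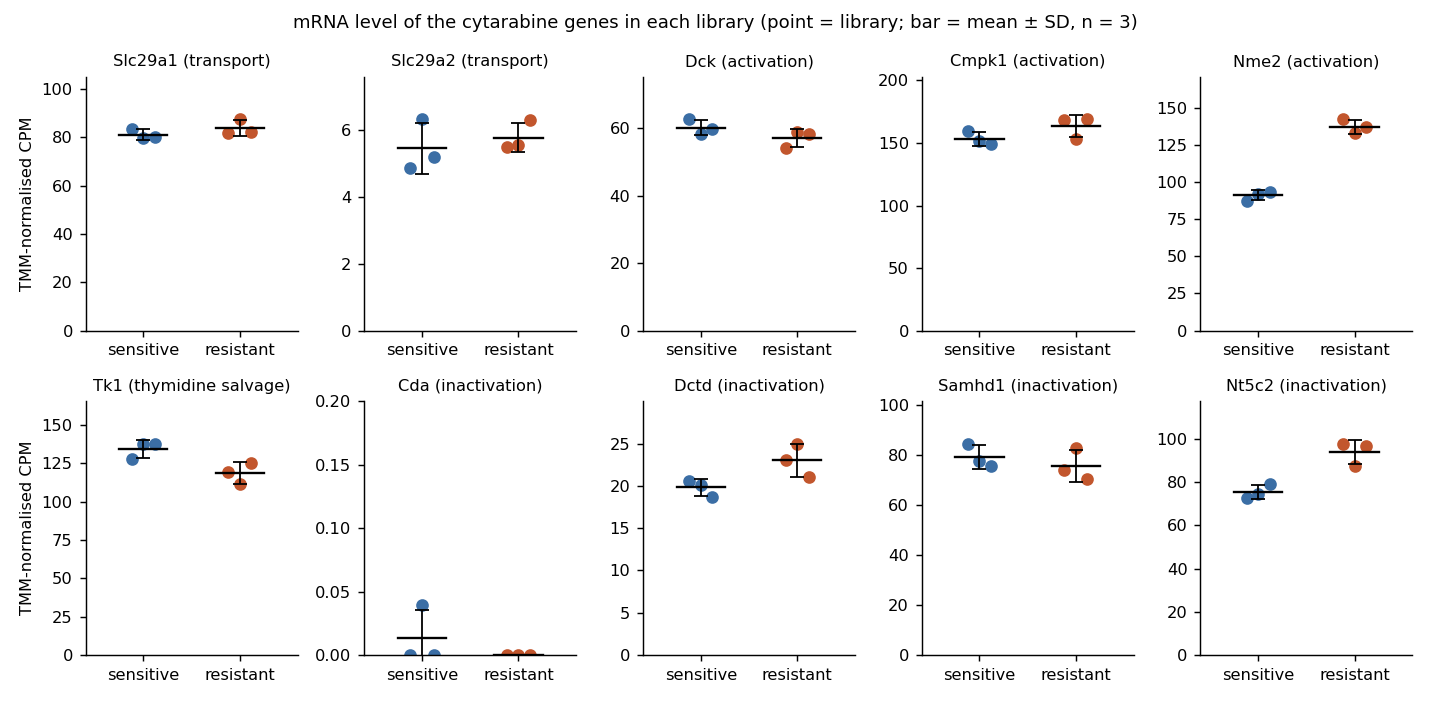
TMM-normalised CPM (y axes, each from 0) of the 10 cytarabine genes in the sensitive and resistant libraries; each point is a library, and the bars are the mean ± SD of 3. Nme2, Nt5c2 and Dctd lie higher and Tk1 lower in every resistant library than in any sensitive one, the other tested genes overlap, and Cda has 1 count in 1 library.

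Uptake. Slc29a1, on chromosome 17, encodes the equilibrative transporter ENT1, the main route of cytarabine into cells at usual doses. It was at 83.6, 79.6 and 80.1 CPM in the sensitive libraries and at 81.6, 87.4 and 82.3 CPM in the resistant ones. The groups overlapped, with a log2 fold change of 0.05 ± 0.06 (interval -0.08 to 0.17, edgeR adjusted p = 0.545). Its paralog Slc29a2, on chromosome 19, encodes ENT2, a carrier with lower affinity for nucleosides. It was low throughout, at 4.85, 6.31 and 5.196 CPM (sensitive) and 5.48, 5.55 and 6.28 CPM (resistant), and the groups overlapped. Here 122 to 174 counts stood behind each value, and the interval was the widest of the 9 genes, -0.24 to 0.40 around 0.08 (adjusted p = 0.678, edgeR).

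Of 7 other listed nucleoside carrier genes 5 were tested, of which 1 was higher, 2 were lower and 2 did not pass, against 39.2% of all tested genes called in either direction. Slc28a2, which encodes a sodium-driven concentrative transporter that prefers purine nucleosides, rose from 52.4, 59.3 and 64.9 CPM to 89.7, 87.6 and 92.1 CPM (0.61 ± 0.08, edgeR adjusted p = 0.00017). It shares 35.4% of its 50-base windows with Gm14085, whose row held 0.757 to 1.599 CPM. With both rows summed the change was 0.61 again. Slc22a3, an organic cation carrier gene, fell by 1.64 ± 0.10 on the log2 scale, from 58.0 ± 3.15 to 18.7 ± 2.49 CPM. Slc29a3, which encodes the lysosomal and mitochondrial family member ENT3, fell by 0.29 ± 0.07 (adjusted p = 0.00693, edgeR). The concentrative transporter genes Slc28a1 and Slc28a3, named after their values were seen, were below 1 CPM in both groups.

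Activation. Dck, on chromosome 5, makes the first phosphorylation. Its level was 62.6, 58.2 and 59.6 CPM in the sensitive libraries and 54.0, 59.0 and 58.2 CPM in the resistant ones. Resistant library 1 was the lowest of the 6, resistant library 3 lay just below the lowest sensitive value and resistant library 2 lay among the sensitive ones. The interval of the log2 fold change, -0.22 to 0.06, bounds the difference at 14.0% lower and 4.52% higher (adjusted p = 0.367, edgeR). Over 15 other ways of processing the counts, the log2 fold change of Dck stayed between -0.11 and -0.04.

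Cmpk1, on chromosome 4, encodes the kinase that makes the diphosphate. It was at 160, 151 and 149 CPM in sensitive and at 168, 154 and 169 CPM in resistant libraries. Resistant library 2 lay within the sensitive range, and the change of 0.09 ± 0.06 did not pass (interval -0.04 to 0.22, edgeR adjusted p = 0.23).

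Nme2 encodes the B subunit of the nucleoside diphosphate kinases, which exchange the last phosphate among many nucleotides and are not particular to cytarabine. Its row was at 87.4, 92.3 and 93.6 CPM in the sensitive libraries and at 142, 133 and 137 CPM in the resistant ones. The lowest resistant value was far above the highest sensitive value. The log2 fold change was 0.59 ± 0.05 (interval 0.47 to 0.71, edgeR adjusted p = 2.07e-05), and it passed under all 15 alternatives that kept the row as deposited, with adjusted p up to 0.000309.

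The rows that share its sequence moved less. Nme1, the A subunit, was at 100.02, 100.9 and 99.9 CPM in sensitive and at 100.9, 111.5 and 109 CPM in resistant libraries. The groups did not overlap, by a narrow margin, and the change did not pass (0.09 ± 0.06, edgeR adjusted p = 0.206). Gm20390 held more reads than either gene, with 237, 236 and 241 CPM in sensitive and 243, 287 and 297 CPM in resistant libraries. It rose by 0.21 ± 0.07 (edgeR adjusted p = 0.0375), but did not pass in 6 of 15 alternatives, where the adjusted p reached 0.118: library totals as the only scaling, and each fit that left out a library other than resistant library 1. Nme2 took 20.6% to 21.5% of the reads of the 3 rows together in the sensitive libraries and 25.02% to 29.2% in the resistant ones. With the 3 rows summed, which no assignment among them can change, the locus stood at 424, 429 and 435 CPM in sensitive and 487, 531 and 542 CPM in resistant libraries. That is a 1.21-fold rise (0.28 ± 0.05, interval 0.16 to 0.40, edgeR adjusted p = 0.00255). Summing Nme2 with Gm20390 alone, which together hold the Nme2 coding sequence, gave 0.33 ± 0.06 (adjusted p = 0.00117, edgeR). The direction therefore held in each sum, at a smaller size than the 0.59 of the separate row. Each sum also takes in rows that moved less, so it cannot show whether the division of reads set that size. How reads that fit several rows were divided is not given in the sources used here.

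**Figure D2:**
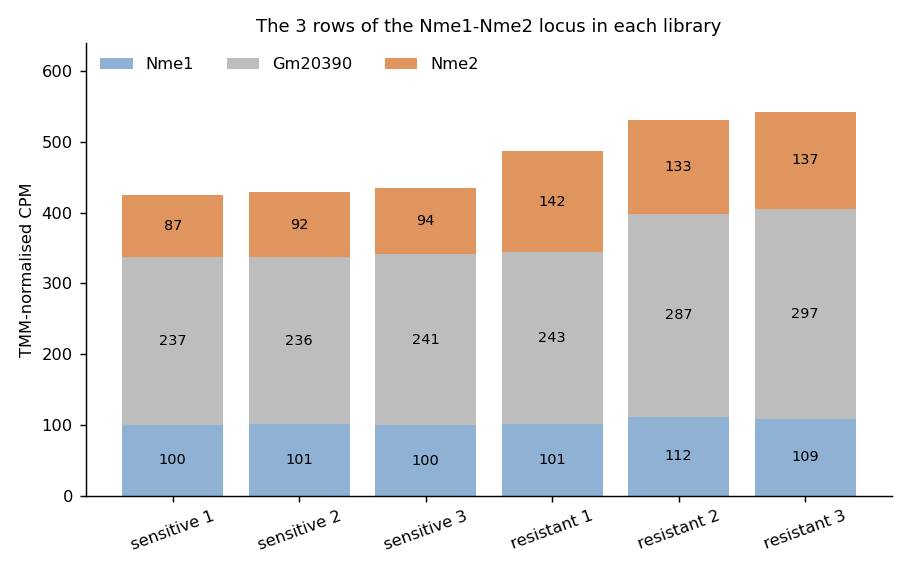
Stacked TMM-normalised CPM (y axis, from 0) of the rows Nme1, Gm20390 and Nme2 in each of the 6 libraries. The whole bar rises from 424 to 435 CPM in sensitive to 487 to 542 CPM in resistant libraries, and Gm20390 is the largest part of every bar.

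Other nucleoside and nucleotide kinases numbered 16, of which 15 were tested, 2 higher, 3 lower and 10 not passing, which is 33.3% called beside 39.2% of all tested genes. The number higher was 1 without sensitive library 1 and 1 without sensitive library 3. Dguok, the mitochondrial deoxyguanosine kinase gene, fell from 17.4 ± 0.763 to 10.4 ± 1.197 CPM (-0.75 ± 0.11, edgeR adjusted p = 0.000362). Uck2, a uridine-cytidine kinase gene, rose by 0.29 ± 0.08 (adjusted p = 0.0118 with edgeR, 0.0529 without sensitive library 3), and its family member Uckl1 fell by 0.29 ± 0.07. Nme3 fell by 0.62 ± 0.12, but 87.1% of its merged exons overlap Mrps34 on the same strand, so its row is uncertain. The other higher gene, Ak3 (0.34 ± 0.09), an adenylate kinase family gene, was named after its values were seen.

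Tk1, also on chromosome 11, phosphorylates thymidine rather than cytidine analogs, and its product feeds the pool of thymidine nucleotides in dividing cells. It was at 128, 138 and 137 CPM in sensitive and at 119, 111 and 125 CPM in resistant libraries. The groups did not overlap, but sensitive library 1 and resistant library 3 were close. The log2 fold change was -0.18 ± 0.06 (interval -0.31 to -0.04, edgeR adjusted p = 0.0401). It did not pass in 5 of 15 alternatives. These were upper quartile scaling (edgeR adjusted p = 0.0601) and the fits without sensitive 2 (0.148), sensitive 3 (0.13), resistant 1 (0.0677) or resistant 2 (0.129).

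Tk1 is read out in S phase. Listed S-phase genes, with the broader proliferation marker gene Mki67 among them, were called lower at a share of 17.6%, beside 20.8% of all tested genes. Of 17 such genes 3 fell and 14 did not pass, with a median log2 fold change of -0.05. The replication fork gene Cdc45 fell by 0.39 ± 0.08, the proliferation marker gene Mki67 by 0.20 ± 0.05 and the histone mRNA binding gene Slbp by 0.16 ± 0.05 (edgeR adjusted p = 0.00299, 0.0149 and 0.0358). Cdc45 passed in all 15 alternatives, Mki67 in 13 and Slbp in 9. In the fit without sensitive library 2 the number of lower genes was 1, and with library totals as the only scaling it was 6. With edgeR, DESeq2 and limma-voom 0 were higher, and 1 was in the edgeR fit without resistant library 1. At an unadjusted p under 0.05, 0 were higher and 6 lower, against 3102 and 3379 of all 13414 tested genes. Below 0 were 13 of the 17 log2 fold changes, against 6815 of the 13414.

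Inactivation. Cda, on chromosome 4, encodes the enzyme that turns cytarabine into inactive uracil arabinoside. Its row had 0, 1 and 0 counts in the sensitive libraries and 0 in each resistant library. This is under the floor of 3 counts in each library, so a count of 0 allows a level of up to 0.0945 to 0.137 CPM and no fold change can be given. Dctd, on chromosome 8, encodes the deaminase that acts one phosphate later. It was at 20.6, 20.2 and 18.7 CPM in sensitive and at 23.1, 24.98 and 21.03 CPM in resistant libraries. The lowest resistant value lay just above the highest sensitive one. The log2 fold change of 0.22 ± 0.09 (interval 0.02 to 0.42) had an unadjusted p = 0.0366 and did not pass after adjustment (edgeR adjusted p = 0.0813). It passed in 1 of 15 alternatives, the fit without resistant library 3 (0.0369).

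Samhd1, on chromosome 2, encodes the hydrolase of the active triphosphate. It was at 84.5, 77.7 and 75.5 CPM in sensitive and at 73.9, 82.8 and 70.3 CPM in resistant libraries. The groups overlapped, and the log2 fold change of -0.07 ± 0.07 did not pass (interval -0.23 to 0.10, edgeR adjusted p = 0.503).

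Nt5c2, on chromosome 19, encodes a cytosolic 5′-nucleotidase that acts mainly on purine monophosphates and has been linked to nucleoside drug resistance in leukemia. It was at 72.6, 74.6 and 79.1 CPM in the sensitive libraries and at 97.9, 87.7 and 96.6 CPM in the resistant ones. All resistant values lay above all sensitive ones, with a log2 fold change of 0.32 ± 0.06 (interval 0.18 to 0.46, edgeR adjusted p = 0.00287). The call held under all 15 alternatives, with adjusted p up to 0.0186. In all, 4 of the 9 tested genes had groups that did not overlap (Nme2, Nt5c2, Dctd and Tk1), against 52.4% of all tested genes.

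Of the other deaminase, nucleotidase and pyrophosphatase genes, 13 of 17 were tested, of which 3 were lower and 10 did not pass, or 23.1% called beside 39.2% of all tested genes. With edgeR, DESeq2 and limma-voom 0 were higher, as at an unadjusted p under 0.05, and 1 was in the edgeR fit without resistant library 1. Ada, the adenosine deaminase gene, fell from 44.9 ± 2.41 to 25.7 ± 1.81 CPM (-0.81 ± 0.08, edgeR adjusted p = 2.71e-05). Nt5e, which encodes the surface nucleotidase CD73, fell by 0.997 ± 0.18, and Nt5c3b, a nucleotidase gene of the same broad class as Nt5c2, by 0.40 ± 0.10. Dctpp1, the dCTP pyrophosphatase gene, was at 54.3 and 54.7 CPM (0.01 ± 0.07, adjusted p = 0.944, edgeR). It was named after its values were seen.

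**Figure D3:**
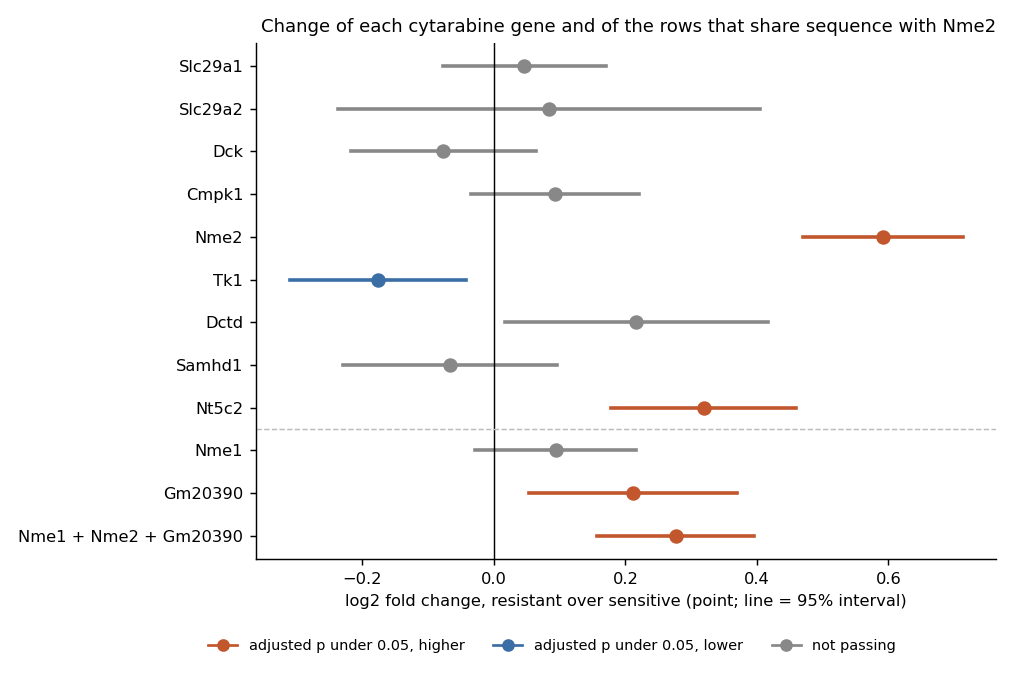
Log2 fold change of resistant over sensitive blasts (x axis; point with its 95% interval) for the 9 tested cytarabine genes and, below the dashed line, for Nme1, Gm20390 and the sum of the 3 rows. Nme2 (0.59) and Nt5c2 (0.32) lie clear of 0, Tk1 (-0.18) is lower, and the summed locus (0.28) lies at less than the value of the Nme2 row.

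Within a library, the ratio of 2 genes does not depend on how libraries are scaled. Dck had 0.863, 0.780 and 0.754 counts per count of Nt5c2 in the sensitive libraries and 0.552, 0.673 and 0.602 in the resistant ones. Every resistant library was therefore lower in this ratio of Dck to Nt5c2 mRNA. The mean log2 ratios were -0.33 ± 0.10 (sensitive) and -0.72 ± 0.14 (resistant, SD, n = 3). Of this pair, Nt5c2 passed its own test and Dck did not. Other nucleotidase genes were not set against Dck. Nt5c3b and Nt5e were lower. Nt5c, Nt5c3, Nt5m and Nt5dc2, named after their values were seen, did not pass. The ratio of Dck to Dctd was also lower in each resistant library, with 3.04, 2.89 and 3.19 against 2.34, 2.36 and 2.77. Neither gene of that pair passed its own test. Set against Samhd1, Dck showed no such separation, with 0.741, 0.750 and 0.790 against 0.731, 0.712 and 0.828. These ratios are descriptions and were not tested.

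Levels of different genes can be compared per length of transcript. Per kilobase of merged exons, the sensitive libraries held 77.8 ± 2.79 CPM of Nme2, 44.9 ± 1.598 of Cmpk1, 25.8 ± 1.08 of Tk1, 20.2 ± 0.543 of Slc29a1, 15.9 ± 0.592 of Dck, 8.66 ± 0.514 of Samhd1, 6.84 ± 0.304 of Nt5c2, 5.81 ± 0.298 of Dctd and 1.81 ± 0.253 of Slc29a2 (SD, n = 3). On this scale no neighbours in the order overlapped in the sensitive libraries. The place of Nme2 in that order is that of its own row. Gm20390, which also holds its coding sequence, had 238 ± 2.78 CPM in sensitive libraries, against 91.1 ± 3.26 in the Nme2 row. In the resistant libraries Nt5c2 (8.52 ± 0.505) and Samhd1 (8.27 ± 0.705) overlapped, as did Tk1 (22.8 ± 1.35) and Slc29a1 (20.9 ± 0.788). In the sensitive libraries Dck was above 72.9% of 13001 tested genes with a known length, Dctd above 47.5% and Slc29a2 above 26.6%.

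The order rests on the length taken: the merged exons of Tk1, Samhd1 and Nt5c2 measure 5198, 9150 and 11037 bases, and their principal transcripts 1440, 3926 and 3728 bases. The length of the principal coding transcript was also taken, a choice made after seeing the data. Per kilobase of it, Tk1 stood at 93.2 ± 3.90 CPM beside the Nme2 row at 90.0 ± 3.22 in sensitive libraries, with overlapping values. On that scale Nt5c2 (20.2 ± 0.90), Samhd1 (20.2 ± 1.197) and Dck (19.5 ± 0.727) could not be separated in sensitive libraries. In the resistant libraries Nt5c2 (25.2 ± 1.496) lay above Samhd1 (19.3 ± 1.64) and Dck (18.5 ± 0.862) without overlap.

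The last lists describe what cytarabine triphosphate meets. The enzymes that make the competing deoxynucleotides showed no call with edgeR. Of 10 deoxynucleotide synthesis genes 0 were higher and 0 lower, beside 39.2% of all tested genes called in either direction. At an unadjusted p under 0.05, 1 was higher and 1 lower. With DESeq2 and with limma-voom, 1 (Umps) was lower. In the edgeR fit without resistant library 1, 1 was higher, and without resistant library 2, 1 was lower. Umps, a pyrimidine synthesis gene named after its values were seen, had an edgeR adjusted p = 0.0506 (-0.18 ± 0.06). The median change of the list was 0.06 on the log2 scale. The polymerases and primases of DNA synthesis numbered 14, of which 3 were higher, 2 lower and 9 did not pass. That is 35.7% called, beside 39.2% of all tested genes. The primase gene Prim1 rose by 0.40 ± 0.06 and the polymerase epsilon gene Pole by 0.22 ± 0.05, while its subunit gene Pole2 fell by 0.34 ± 0.06 and the mitochondrial polymerase gene Polg by 0.35 ± 0.06. The other higher gene, Pole3 (0.21 ± 0.07), did not pass with limma-voom and was named after its values were seen.

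**Figure D4:**
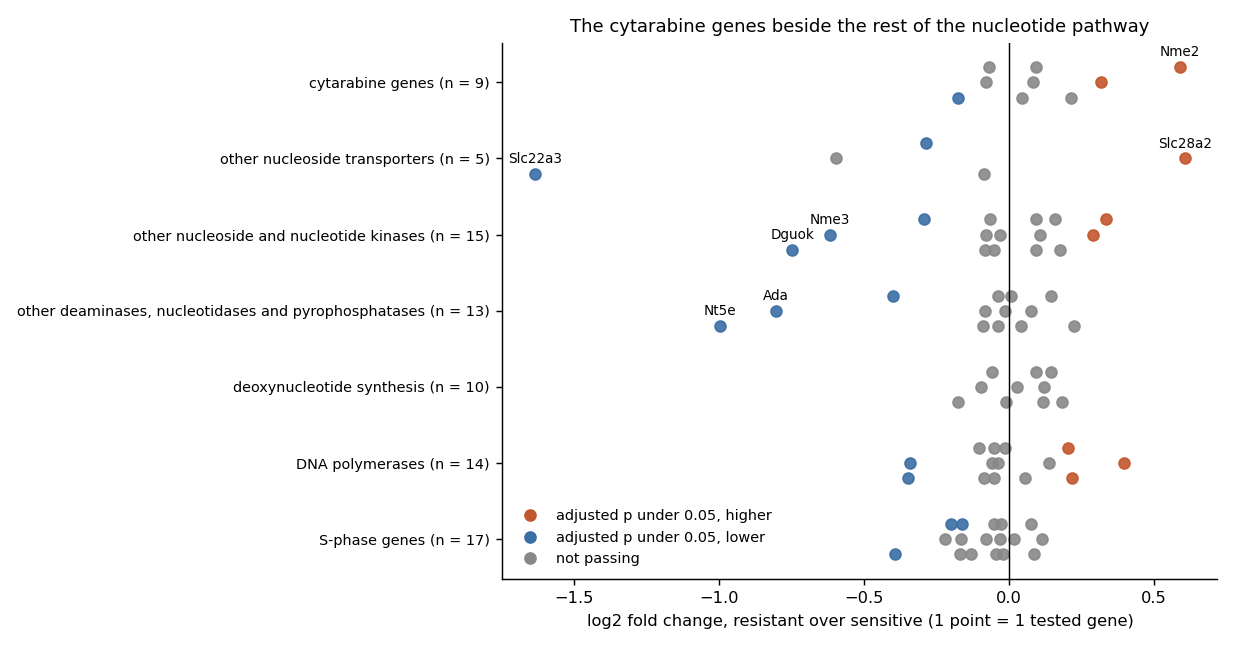
Log2 fold change of resistant over sensitive blasts (x axis) for each tested gene of the cytarabine genes and 6 further lists; a point is a gene, coloured by whether it passed at an adjusted p of 0.05. Most points lie near 0, and the lowest are Slc22a3 (-1.64), Nt5e (-0.997) and Ada (-0.81).

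Across the transporters, kinases, deaminases, nucleotidases and synthesis genes outside the 10, 43 of 49 in the table were tested, 3 were higher, 8 lower and 32 did not pass. In the fit without resistant library 1 the number of higher genes was 5. The 11 changed genes make 25.6% of those tested, and the 3 changed cytarabine genes 33.3%, against 39.2% of all tested genes. Slc22a3, Dguok, Ada and Nt5e changed by more in log2 units than Nme2 did in its own row (0.59 ± 0.05). Slc28a2 (0.61 ± 0.08) and Nme3 (-0.62 ± 0.12, an uncertain row) changed by about as much as Nme2.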

How the data were processed

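RNA sequencing was done on 3 sensitive and 3 resistant libraries made with a column RNA kit and a TruSeq kit, per the labels' protocols. The authors deposited whole-number counts per Ensembl gene; the submitters' processing notes name TopHat2, RSEM and the build mm9, without versions or roles. The sources used here do not give the annotation release, the strand setting or the handling of shared reads. All 6 columns matched 1 sample each (0 left over). Symbols, merged exon lengths and transcript sequences came from GENCODE M21, a later build; 31636 IDs matched, and no coordinates are given.

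The quasi-likelihood test of edgeR 4.0.16 (R 4.3.3) was run on the group as the sole term after filterByExpr and TMM. The p-values of all 13414 genes were adjusted together (Benjamini-Hochberg), and 0.05 was the threshold. SE and interval come from the F statistic. Library totals were 22206341 to 31856009 counts. In 3 simulations of 13414 genes with 200 changed, the fit recovered 32.2% of 1.25-fold, 62.5% of 1.5-fold and 77.8% of 2-fold changes, 5.03% of calls were false and 93.2% of intervals held the true value; these shares belong to that small number of changed genes and do not carry over to the real comparison. The members and the gene lists were chosen with earlier results of these data known. The text names all 10 members, up to 4 genes with the smallest adjusted p among those past the threshold in each further list, Nme1, Dguok, Uck2 and the markers given; others are said to be named after their values were seen. Replicates differed by more than sampling noise (chi-square over degrees of freedom 3.92 to 13.6), so each counts as a library. Alternatives were other scalings, DESeq2 1.42.0, limma-voom (limma 3.58.1), other filters, marker genes left out, the replicate number as a block, and each library left out. The planned ratio of Dck to Cda could not be formed.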

Additional observations from a re-analysis of the deposited data

How the results depend on the processing

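All 10 members were recomputed under 15 alternatives, apart from Cda, which was not tested. The number of members higher was 2 to 3 over them. The number lower, 1, became 0 with upper quartile factors and 0 to 1 when a library was left out. The number of other pathway genes higher, 3, ranged from 2 to 5 when a library was left out, and that of all tested genes higher, 2475, from 1641 (without sensitive library 2) to 2521; the causes were not tested. No log2 fold change of a tested member changed sign. Same-numbered libraries had correlations of deviations of -0.09 to 0.04, and differently numbered ones of -0.06 to 0.07. With 3 libraries per group, this cannot show whether the numbers pair the libraries. With the replicate block 2 members were again higher and 1 lower. The largest shift of the median of all genes by a scaling was to -0.04 with library totals alone. Summed rows and the principal transcript length were chosen after seeing the data, except the sum of Nme1, Nme2 and Gm20390.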

Other observations

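The division of reads at the Nme locus differed between resistant libraries as well as between groups. Resistant library 1 had the highest Nme2 row of the 6 (142 CPM) and the lowest sum of the 3 rows among resistant libraries (487 CPM), with 29.2% of the locus in Nme2 and 50.02% in Gm20390. In resistant libraries 2 and 3 the Nme2 share was 25.02% and 25.2%, and that of Gm20390 54.0% and 54.7%. Within Nme1 and Nme2 alone, Nme2 had 0.874 to 0.937 counts per count of Nme1 in sensitive and 1.19 to 1.41 in resistant libraries. The cause of this difference was not tested.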
